A study of Mus musculus with 4 samples.

Results

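Cybb, Cyba, Ncf1, Ncf4 and Rac2 encode parts of the phagocyte NADPH oxidase, and their UMIs (unique molecular identifiers, each standing for 1 captured mRNA molecule) were counted in the cell classes of the mouse brain after transient middle cerebral artery occlusion (tMCAO). The 5 genes were taken by their symbols and each symbol matched 1 row, so the results cover 5 of the 31053 genes in the count matrices. The brains came from male mice of the C57/BL6 strain, given as 8 weeks old in the labels, and the study's methods describe a filament that closed the right middle cerebral artery and was then withdrawn to let blood return. Mice with sham surgery went through the same steps without the occlusion. The operated hemisphere was digested with papain, cleared of myelin with Percoll and run on 10x Genomics chips with no cell sort. There was 1 library for sham and 1 each for 1, 3 and 7 days after tMCAO, the labels name no genotype or agent, and the number of animals behind a library is not given in the sources used here. The sham brain is placed at day 7 in the deposited design text and before day 1 in the study's scheme, so its time after surgery is uncertain.

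The phagocyte NADPH oxidase carries electrons from NADPH across a membrane to oxygen and so makes superoxide, the first product of the respiratory burst. Cybb encodes gp91phox, the catalytic subunit, which sits in the membrane with p22phox, the product of Cyba. p22phox is also shared by other members of the NOX family outside phagocytes. The cytosolic subunits p47phox (Ncf1) and p40phox (Ncf4) move to the membrane when the cell is stimulated, and the small GTPase Rac2 joins them to complete the enzyme. Neutrophils use the oxidase to kill microbes, and in the brain it has been studied as a source of reactive oxygen from microglia and from macrophages at the borders of the tissue.

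The regions just before the start of Cybb, Cyba and Ncf1 are shown, the members for which a sequence was available. Cybb and Ncf1 had opposite placements between border macrophages and microglia in the results below, and Cyba was the member found widely outside phagocytes. The sequences are from RefSeq on GRCm38.p6, cover the 250 bases before the RefSeq start and read 5′ to 3′ on the strand of the gene, which is the minus strand for each of them. Capitals mark matches to GAAA, any 2 bases and GAAA again (the core of an interferon-response type element), to CCAAT or to GGGCGG (a GC box), each searched on both strands. Gene positions are those of GENCODE vM21. Cybb lies at chrX:9435252-9487771 and its window at chrX:9469325-9469574, which is inside that span because GENCODE also annotates Cybb transcript sequence upstream of the RefSeq start. Cyba lies at chr8:122424776-122432930 and its window at chr8:122432941-122433190. Ncf1 lies at chr5:134220053-134229625 and its window at chr5:134229626-134229875.
Cybb: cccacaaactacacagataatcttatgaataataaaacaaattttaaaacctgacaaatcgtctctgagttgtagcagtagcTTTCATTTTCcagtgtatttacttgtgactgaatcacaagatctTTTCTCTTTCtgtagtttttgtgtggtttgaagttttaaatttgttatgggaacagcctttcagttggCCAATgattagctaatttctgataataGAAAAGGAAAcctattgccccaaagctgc
Cyba: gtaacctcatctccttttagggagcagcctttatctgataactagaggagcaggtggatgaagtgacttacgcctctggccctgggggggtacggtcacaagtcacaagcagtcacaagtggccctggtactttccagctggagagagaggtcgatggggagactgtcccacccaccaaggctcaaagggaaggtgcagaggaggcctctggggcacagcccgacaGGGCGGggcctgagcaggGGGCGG
Ncf1: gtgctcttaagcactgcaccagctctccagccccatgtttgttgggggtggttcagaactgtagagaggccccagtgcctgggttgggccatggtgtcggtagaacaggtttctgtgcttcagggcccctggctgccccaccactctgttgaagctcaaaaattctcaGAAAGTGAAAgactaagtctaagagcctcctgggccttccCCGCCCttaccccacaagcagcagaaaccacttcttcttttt
The Cybb window held 3 matches to the GAAA pair, starting at -168 and -124 on the opposite strand and at -29 on the gene's own, and a CCAAT at -56. At least 1 match to the GAAA pair was found in 2.98% of the 32851 windows of this length, and 3 or more in 4 of them (0.0122%). The Ncf1 window held 1 such match, at -82, and a GC box on the opposite strand at -42, while the Cyba window held GC boxes at -24 and -6 and no match to the GAAA pair. A CCAAT was found in 33.8% and a GC box in 32.7% of all windows. GAGGAA, the core bound by PU.1, was found in 23.3% of all windows and in none of these 3, which says only that these letters are not there. Ncf4 (chr15:78244801-78262580, plus strand) and Rac2 (chr15:78559167-78572783, minus strand) are given by position only, because no window was available for them. No annotated gene overlapped any of the 5 on the same strand, whereas Gm20388 overlapped Cyba and Gtf2ird2 overlapped Ncf1 on the opposite strand.

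Cells were limited to 200 to 3000 detected genes and to a mitochondrial share of 10% or less of their UMIs, which left 7562, 13376, 9378 and 14044 cells of sham, day 1, day 3 and day 7, with a median of 2507.5 to 3731.5 UMIs per cell. Total UMIs per library ran from 69392755 to 104023002 over all deposited cells. Between 33 and 88 cell barcodes were shared by any pair of libraries (356 barcodes in all), and 1.11% to 4.84% of kept cells were called doublets and left in. Clusters were named from marker genes, without letting the 5 genes or the related genes below shape the clusters. Microglia-like cells numbered 160, 662, 421 and 377 in sham and at days 1, 3 and 7, and UMIs of all 10 of their markers, Tmem119, P2ry12 and Sall1 among them, were found in every library. They formed a deeper cluster (895 cells, median 4614 UMIs) and a shallower one (725 cells, median 1052 UMIs). The leading genes of the shallower cluster, Elane and Prtn3, had 379 and 291 of their UMIs in a single day 3 cell. Border macrophage-like cells, led by Pf4, H2-Eb1 and Mrc1, numbered 62, 130, 62 and 86, and neutrophil-like cells, led by S100a8, S100a9 and Retnlg, numbered 16, 64, 57 and 25. No cluster took the name of monocytes or of dendritic cells, so such cells, if captured, lie within the classes described here. When single cells were classed by their own markers, 5, 29, 4 and 6 cells were called border macrophages and 7, 12, 1 and 21 monocytes in sham and at days 1, 3 and 7. Classes with under 50 cells in a library, the sham and day 7 neutrophil-like cells among them, were kept out of the ratios between days and between classes, while shares and counts pooled over the libraries include their cells.

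Levels below are in CPM, the UMIs of a gene per 1000000 UMIs of all genes, both summed over the cells of a class. With 1 library per group there is no test of any difference between days. The intervals are 95% intervals from the Poisson or binomial distribution of the UMIs or cells. They cover counting error only, not the spread between cells, although the UMIs of a gene can lie together in few cells. The spread between animals is not covered either and cannot be read from these data.

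The UMIs of the 5 genes in kept cells lay in different classes. The limits on cells left out part of the UMIs, and 722 of 1601 Ncf1 UMIs of day 1 were in kept cells. Border macrophage-like cells, which made up 0.766% of the kept cells, held 62.0% (59.3% to 64.6%) of the 1318 Cybb UMIs in kept cells. Microglia-like cells held 18.7% and neutrophil-like cells 12.6%. At day 3 border macrophage-like cells held 124 of 296 Cybb UMIs, neutrophil-like cells 84 and microglia-like cells 63. In sham neutrophil-like cells held 21 and microglia-like cells 6. Ncf1 was placed otherwise, with 66.1% (63.9% to 68.3%) of its 1845 UMIs in microglia-like cells, 14.6% in neutrophil-like and 10.5% in border macrophage-like cells. Border macrophage-like cells held more Ncf1 UMIs than neutrophil-like cells at day 1 (78 against 40) and day 7 (69 against 67). They held fewer in sham (26 against 40) and at day 3 (21 against 123). Ncf4, with 885 UMIs, lay 38.2% in microglia-like, 22.6% in neutrophil-like and 20.5% in border macrophage-like cells. These pooled shares follow the many microglia-like UMIs of day 1, where the class held 59.8% of Ncf4, while border macrophage-like cells held the largest share in sham (32.1%) and at day 7 (27.9%) and neutrophil-like cells at day 3 (39.2%). The 4057 Rac2 UMIs were spread over microglia-like cells (30.1%), cells like T or NK cells (26.0%), neutrophil-like (22.7%) and border macrophage-like cells (12.3%). By library, microglia-like cells held the largest share of Rac2 at day 1 (62.0%), neutrophil-like cells at day 3 (42.4%), and T or NK-like cells in sham (31.0%, from 26 cells) and at day 7 (52.4%). Cyba was the exception, since endothelial-like cells, 48.5% of the kept cells, held 43.8% of its 40692 UMIs, followed by microglia-like cells with 21.2%, vascular smooth muscle-like cells with 10.1% and border macrophage-like cells with 9.21%. By library the order after endothelial-like cells varied. In sham vascular smooth muscle-like cells held 932 Cyba UMIs, border macrophage-like cells 577 and microglia-like cells 562. At day 1 border macrophage-like cells held 1912 and vascular smooth muscle-like cells 888. The share of each gene's UMIs by class is drawn in the plot of where the UMIs lay.

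**Figure D1:**
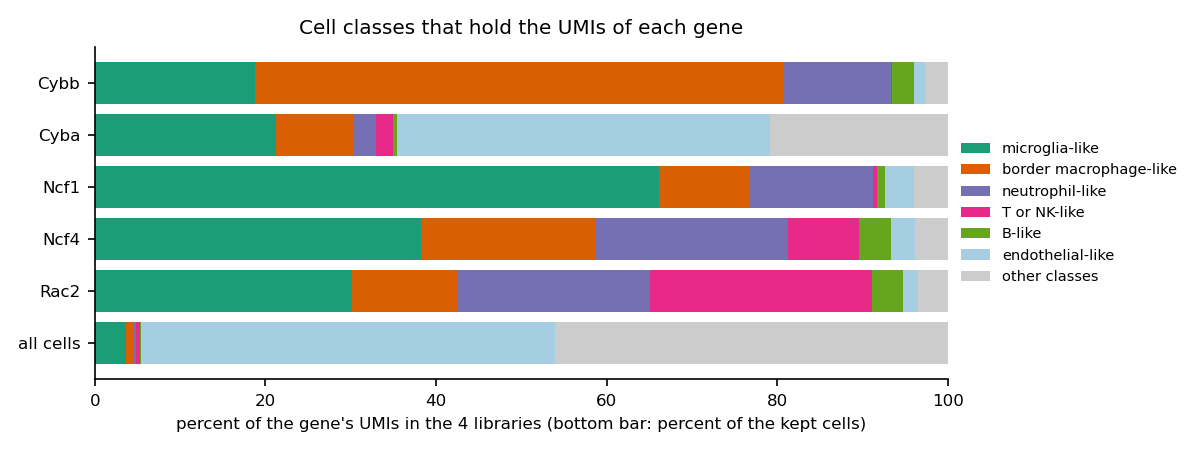
Share of each gene's UMIs, in percent, that lay in each cell class, all 4 libraries summed (1318 Cybb, 40692 Cyba, 1845 Ncf1, 885 Ncf4 and 4057 Rac2 UMIs), with the share of all kept cells as the bottom bar. Cybb lay mostly in border macrophage-like cells (62.0%), Ncf1 mostly in microglia-like cells (66.1%), and the largest share of Cyba in endothelial-like cells (43.8%).

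Cybb, the catalytic subunit, was scarce in microglia-like cells. Its level there was 11.7 CPM in sham (6 UMIs), 34.4 at day 1 (88 UMIs), 44.2 at day 3 (63 UMIs) and 76.5 at day 7 (90 UMIs). The sham level was the lowest and the day 7 level the highest, and the sham interval (4.29 to 25.5) did not reach that of any day. Against sham the ratio was 2.94 (1.30 to 8.23) at day 1, 3.78 (1.64 to 10.7) at day 3 and 6.54 (2.89 to 18.3) at day 7. These ratios rest on 6 sham UMIs in 3 cells, and those 3 cells held 5546 CPM of border macrophage markers against 168 CPM in the other 157. At day 7, 26 of 377 cells held all 90 UMIs and the 5 highest of them 41, and these 26 cells had 938 CPM of border macrophage markers and 13320 CPM of microglia markers, against 161 and 20878 CPM in the rest. The part of border macrophages placed among microglia in these ratios was not tested. When the 5 genes and their related genes were left in the clustering, microglia-like cells held 1 Cybb UMI in sham and 34 at day 7, where the level was 29.0 CPM, and the day 1 ratio on that single UMI was 16.4 (2.87 to 657). When each cell was classed by its own markers instead, the day 1 ratio was 1.17 (0.693 to 2.08), the day 3 ratio 1.52 (0.887 to 2.75) and the day 7 ratio 3.07 (1.83 to 5.44). The sham level was the lowest under each of these rules (the gated day 1 and day 3 intervals include 1), but the size of the difference depended on where the border between the classes was drawn.

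Cybb in border macrophage-like cells stood at 496 CPM in sham (154 UMIs), 226 at day 1 (176 UMIs), 439 at day 3 (124 UMIs) and 814 at day 7 (363 UMIs). Day 1 was the low point and day 7 the high point, with intervals of 194 to 263 and 733 to 902. The ratio to sham was 0.457 (0.366 to 0.571) at day 1, 0.885 (0.693 to 1.13) at day 3 and 1.64 (1.36 to 2.0) at day 7, and day 7 was 3.59-fold (2.99 to 4.33) above day 1. By the 1.5-fold rule given below, Cybb was higher at day 7 than in sham in 7 of 9 ways of processing. The markers of other cell types in this class moved as well. All 8 border macrophage markers were found in every library and summed to 8248, 9226, 4910 and 3239 CPM in sham and at days 1, 3 and 7. The monocyte markers, of which 7 of 8 were found in sham (Vcan was at 0) and 8 of 8 later, summed to 3558, 1678, 3003 and 4329 CPM, lowest at day 1 and highest at day 7 as Cybb was. Neutrophil markers summed to 35.4, 70.8, 6247 and 213 CPM, with Retnlg and Cxcr2 at 0 in every library. Microglia markers summed to 8706, 6272, 6222 and 3317 CPM, with Tmem119 and Sall1 at 0 in sham and Sall1 at day 3. At day 7 the cells with a Cybb UMI, which were deeper (median 5806 against 2064 UMIs), held more of these markers, with 5621 CPM of monocyte and 3744 CPM of border macrophage markers in 53 cells against 1054 and 1958 CPM in the 33 without. At day 1 monocyte markers were at 1542 CPM with and 1858 CPM without a Cybb UMI, and border macrophage markers were lower with than without one in sham (8064 against 9476 CPM) and at day 3 (4558 against 5827 CPM). At day 3, the 39 cells with a Cybb UMI held 8616 CPM of neutrophil markers against 76.5 CPM in the 23 without. The Cybb levels and the 62.0% share are thus those of a class that holds markers of microglia, of monocytes and, at day 3, of neutrophils. The microglia markers summed higher than the border macrophage markers in sham and at days 3 and 7, and lower at day 1. The levels could not be recomputed without the cells that held a UMI of a monocyte marker. Fewer than 50 cells were then left in every library but day 1.

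Cybb was higher in border macrophage-like than in microglia-like cells of every library. The ratio was 42.4 (19.0 to 117) in sham, 6.58 (5.07 to 8.60) at day 1, 9.93 (7.28 to 13.7) at day 3 and 10.6 (8.43 to 13.6) at day 7. The sham ratio again has 6 UMIs below it. Other ways of processing gave 4.87 to 9.02 at day 1, 5.74 to 27.1 at day 7 and up to 256 in sham. After each cell was thinned to 1000 UMIs, which evens out depth and leaves out shallower cells, a Cybb UMI was found in 23.1%, 20.7%, 36.8% and 48.8% of border macrophage-like cells in sham and at days 1, 3 and 7, and in 1.68% (2 of 119 cells), 1.91%, 5.32% and 4.87% of microglia-like cells. In all, 310 border macrophage-like and 1210 microglia-like cells reached that depth. Without thinning the shares reached 66.1% and 7.84%. In endothelial-like cells, taken here as background, the thinned share was 0.0306% (6 of 19582 cells), with median depths of 2088 to 3662.5 UMIs against 1898 to 2681 in microglia-like and 4219 to 5352 in border macrophage-like cells.

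Cyba, the membrane partner, was found in all phagocytes and beyond them. In microglia-like cells it stood at 1096, 1778, 1376 and 1319 CPM in sham and at days 1, 3 and 7. Day 1 was the highest, at 1.62-fold (1.49 to 1.77) of sham, and days 3 and 7 followed at 1.26-fold (1.14 to 1.38) and 1.20-fold (1.09 to 1.33). In border macrophage-like cells the levels were 1858, 2460.5, 1942 and 1595 CPM, again highest at day 1 with 1.32-fold (1.21 to 1.46) of sham, and lowest at day 7 with 0.858-fold (0.768 to 0.960). Neutrophil-like cells had 1659 CPM at day 1 and 1707 at day 3, and on the CPM scale these did not differ beyond counting error (ratio 1.03, 0.883 to 1.20). Neutrophil markers took a much larger part of the UMIs at day 3, as given below.
Outside the phagocytes, endothelial-like cells carried Cyba at 272, 372, 264 and 205 CPM, highest at day 1 and lowest at day 7 with intervals apart. Fibroblast-like cells (206 to 302 CPM), pericyte-like cells (219 to 300 CPM) and vascular smooth muscle-like cells (145 to 220 CPM) had levels of the same order. T or NK-like cells were higher, at 805 CPM at day 3 and 866 at day 7. Ependymal-like cells had 152 CPM at day 1, 273 at day 3 and more at day 7. Oligodendrocyte-like cells stayed between 2.46 and 18.2 CPM. The share of cells with a Cyba UMI at 1000 UMIs was 23.0% in endothelial-like and 1.04% in oligodendrocyte-like cells.

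**Figure D2:**
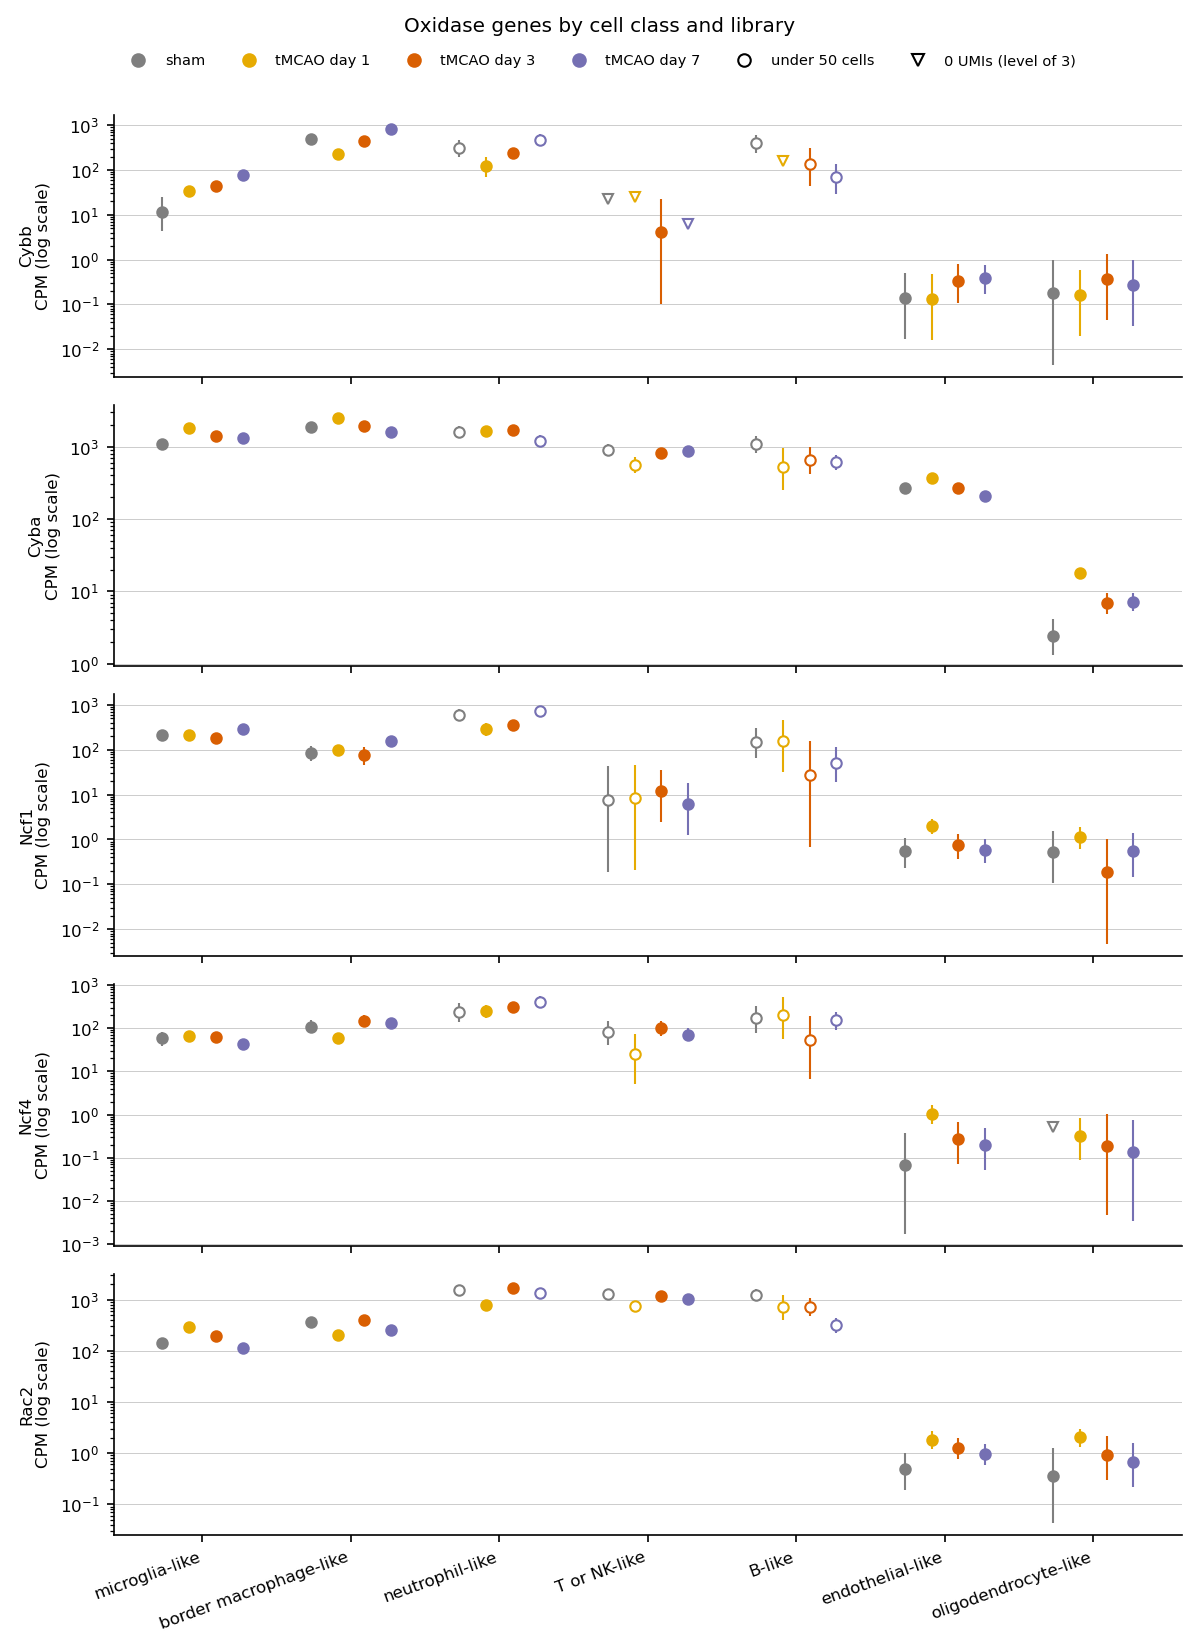
Level of each gene in CPM (log axis) in 7 cell classes of sham and 1, 3 and 7 days after tMCAO. Points are 1 library each, open where the class had under 50 cells, bars are exact 95% Poisson intervals (counting error only), and triangles mark 0 UMIs, drawn at the level of 3. Cybb lay far higher in border macrophage-like cells (226 to 814 CPM) than in microglia-like cells (11.7 to 76.5 CPM), whereas Ncf1 lay lower (74.3 to 155 against 177 to 283 CPM).

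Ncf1, the organizer subunit p47phox, showed the reverse placement to Cybb. In microglia-like cells it stood at 207 CPM in sham, 207 at day 1, 177 at day 3 and 283 at day 7. Sham and day 1 did not differ beyond counting error (ratio 1.00, 0.811 to 1.25), nor did day 3 and sham (0.855, 0.679 to 1.08), and day 7 was 1.37-fold (1.10 to 1.72) of sham. In border macrophage-like cells the levels were 83.7, 100.4, 74.3 and 155 CPM, from 21 to 78 UMIs, with day 7 at 1.85-fold (1.16 to 3.02) of sham. The day 7 level counted as higher, by the 1.5-fold rule given below, in 7 of 9 ways of processing.
In every library Ncf1 was lower in border macrophage-like than in microglia-like cells, at 0.405 (0.253 to 0.627), 0.485 (0.377 to 0.616), 0.420 (0.256 to 0.657) and 0.547 (0.416 to 0.710) of the microglial level in sham and at days 1, 3 and 7. This order held under all 10 to 12 ways of processing run for each library, the main one included. Neutrophil-like cells had 285 CPM at day 1 and 352 at day 3, which was 1.38-fold (0.972 to 1.90) and 1.99-fold (1.59 to 2.48) of the microglial level in the same libraries. T or NK-like cells held 1, 1, 3 and 3 Ncf1 UMIs in the 4 libraries.

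Ncf4, which encodes p40phox, the subunit that binds phosphoinositides on phagosomes, was low and nearly level in microglia-like cells. It stood at 58.5, 65.7, 62.4 and 43.4 CPM, and no ratio to sham had an interval that left out 1 (1.12, 0.758 to 1.72, at day 1; 1.07, 0.698 to 1.67, at day 3; 0.741, 0.463 to 1.21, at day 7). In border macrophage-like cells, it stood at 109 CPM in sham, 57.9 at day 1, 149 at day 3 and 135 at day 7, and day 1, the lowest, was 0.529-fold (0.331 to 0.852) of sham. Day 1 was thus the only library in which the border macrophage-like level was not above the microglial one (0.881, 0.620 to 1.23), against 1.87, 2.38 and 3.10 in sham and at days 3 and 7. The monocyte markers of border macrophage-like cells were also lowest at day 1, and their neutrophil markers were highest at day 3. The part of such cells in the Ncf4 levels was not tested. Neutrophil-like cells had 249 CPM at day 1 and 318 at day 3, or 3.79-fold (2.56 to 5.49) and 5.09-fold (3.82 to 6.81) of the microglial level. Ncf4 was also found in T or NK-like cells, at 101 CPM at day 3 and 71.2 at day 7.

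Rac2, the GTPase of blood cells that completes the enzyme, peaked at day 1 in microglia-like cells. Its level was 140 CPM in sham, 287 at day 1, 196 at day 3 and 116 at day 7, from 72, 735, 280 and 136 UMIs. Day 1 stood above the other 3 libraries, with a ratio to sham of 2.05 (1.61 to 2.65). Day 3 was at 1.40 (1.08 to 1.84), and day 7 at 0.824 (0.615 to 1.11), which did not differ from sham beyond counting error. The share of microglia-like cells with a Rac2 UMI at 1000 UMIs was 10.1%, 21.6%, 14.3% and 9.36%, in the same order as the levels. Border macrophage markers in the microglia-like cells, 7 of 8 found in each library (8 of 8 at day 7, Lyve1 at 0 in the others), summed to 292, 619, 303 and 279 CPM and were also highest at day 1. Monocyte markers there, 6 to 8 of 8 found, with Ly6c2 at 0 in sham and at day 1 and Chil3 at 0 in sham, summed to 601, 860, 819 and 663 CPM. Without the cells that held a UMI of Ccr2, Ly6c2, Plac8, Chil3, Vcan or Ms4a4c, an alternative chosen after seeing the data, the day 1 ratio to sham was 2.01 (1.57 to 2.62) for Rac2 and 1.63 for Cyba. The part of border macrophages in these levels was not tested.
Among border macrophage-like cells day 1 was instead the lowest library, with 361 CPM in sham, 199 at day 1, 407 at day 3 and 260 at day 7 and a day 1 ratio to sham of 0.553 (0.431 to 0.712). Day 1 was therefore the library in which Rac2 was lower in border macrophage-like than in microglia-like cells (0.694, 0.580 to 0.826), while it was 2.57-, 2.07- and 2.25-fold higher in sham and at days 3 and 7. In border macrophage-like cells monocyte markers were lowest at day 1 but highest at day 7, and neutrophil markers were highest at day 3. Whether such cells have a part in the Rac2 levels was not tested. Neutrophil-like cells had 798 CPM at day 1 and 1661 at day 3, which was 2.77-fold (2.25 to 3.39) and 8.46-fold (7.32 to 9.79) of the microglial level. Other ways of processing gave ratios of up to 4.01 at day 1 and up to 16.3 at day 3. T or NK-like cells had levels in a similar range to neutrophil-like cells, 1189 CPM at day 3 and 1025 at day 7. This was 6.06-fold (5.12 to 7.16) and 8.86-fold (7.32 to 10.8) of microglia-like cells, in the near absence of Cybb (1 UMI over the 4 libraries).

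**Figure D3:**
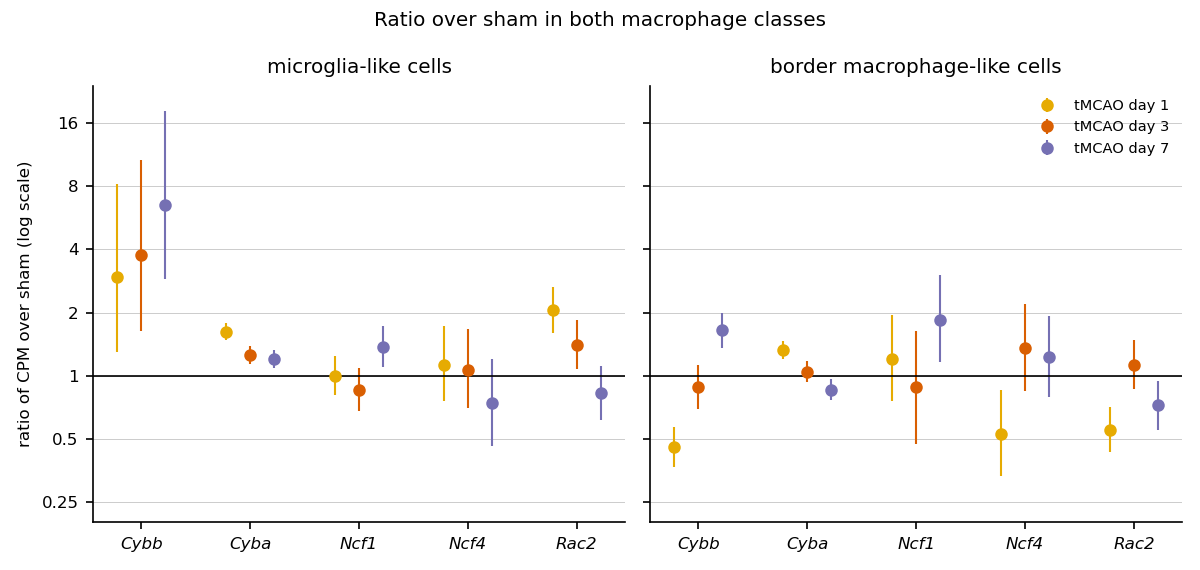
Ratio of each gene to sham at days 1, 3 and 7 (log axis) in microglia-like and border macrophage-like cells, with exact 95% intervals that cover counting error only; the black line at 1 marks no difference. At day 1 Rac2 was at 2.05-fold of sham in microglia-like and 0.553-fold in border macrophage-like cells, and Cybb at 2.94-fold and 0.457-fold.

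These ratios were set beside those of all genes at a mean of at least 50 CPM over both sides, with a gene counted as higher or lower when it differed at least 1.5-fold after 5 CPM were added to each. In microglia-like cells at day 1, 21.7% of 2765 genes were higher than in sham and 25.0% lower, and of the 4 members at that level Cyba and Rac2 were higher and none lower. Both were also higher in each of the 12 other ways of processing. At day 3, 10.7% of genes were higher and 10.2% lower, and at day 7 9.10% and 7.58%, with none of the 4 members in either count. The mean of Cybb over sham and each day was below the limit of 50 CPM, so it was not counted. In border macrophage-like cells at day 1, 17.9% of 2542 genes were higher and 22.6% lower, and of the 5 members Cybb, Ncf4 and Rac2 were lower and none higher, also in the 8 other ways of processing that could be run. At day 3 the shares were 14.6% and 13.9%, with no member in either, and at day 7 20.1% and 18.3%, with Cybb and Ncf1 higher and none lower. That day 7 result was not stable, since clustering without integration left no member higher and Rac2 lower. With so few members, counts of 2 of 4 or 3 of 5 are a description of these libraries.
Between classes, 22.6% of 2851 genes were higher in border macrophage-like than in microglia-like cells of sham and 25.3% lower, against 4 of 5 members higher and Ncf1 lower. At day 1 it was 12.2% and 16.9%, with Cybb higher and Ncf1 lower. At day 3 it was 18.6% and 23.4%, and at day 7 20.4% and 23.2%, each with Cybb, Ncf4 and Rac2 higher and Ncf1 lower. For neutrophil-like over microglia-like cells, 30.0% of genes were higher and 25.3% lower at day 1, with Cybb, Ncf4 and Rac2 higher and no member lower. At day 3, 20.6% were higher and 57.8% lower, with all but Cyba higher and no member lower on the CPM scale. At day 3 the median gene was at -0.93 on the log2 scale, with the 8 neutrophil markers alone at 390540 CPM of the neutrophil-like cells, and relative to that median gene the Rac2 ratio was 16.3 in place of 8.46 and Cyba, at 2.39, was higher too.

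**Figure D4:**
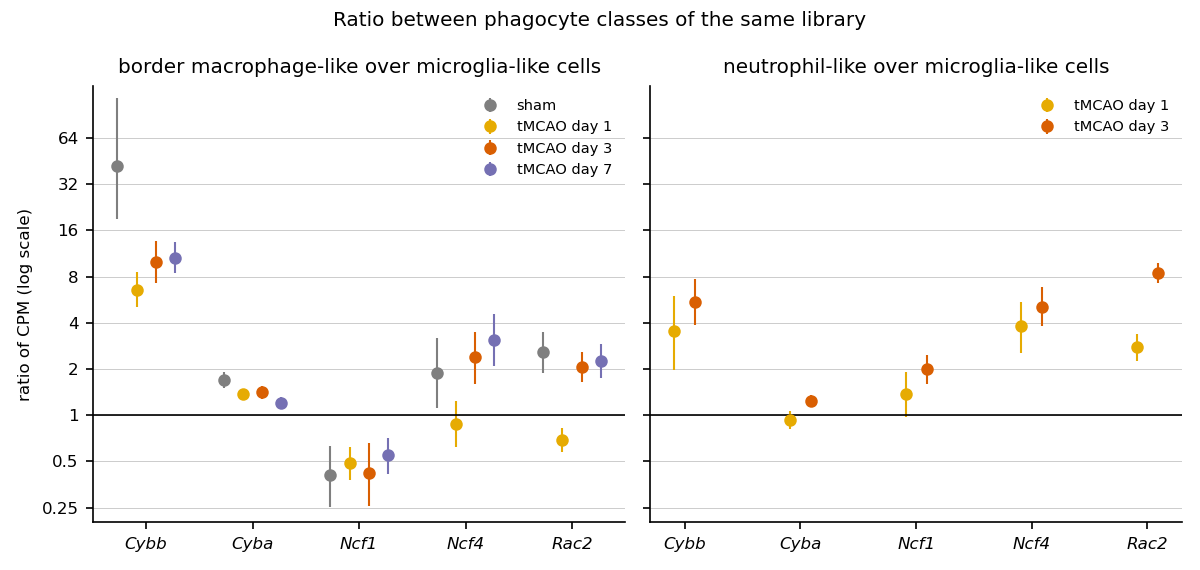
Ratio of each gene in border macrophage-like (all 4 libraries) and neutrophil-like cells (days 1 and 3) to microglia-like cells of the same library (log axis), with exact 95% intervals that cover counting error only. Ncf1 was lower in border macrophage-like cells of every library (0.405 to 0.547). Rac2 was 8.46-fold higher in neutrophil-like cells at day 3 on the CPM scale (16.3 relative to the median gene).

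The neutrophil-like values differ in quality between the days. At day 1 the 64 cells had a median of 1469 UMIs and 66674 CPM of neutrophil markers, against 5531 UMIs and 390540 CPM at day 3, and they held 477 CPM of microglia markers and 2706 CPM of endothelial markers, against 40.1 and 939 CPM at day 3. Rac2 was 2.08-fold (1.70 to 2.57) and Cybb 1.99-fold (1.17 to 3.57) higher at day 3 than at day 1, and whether the make-up of the day 1 cluster has a part in this was not tested. In clustering without integration the day 1 neutrophil-like cells held 2 Cybb UMIs and the ratio to microglia-like cells was 0.656 (0.0782 to 2.45) in place of 3.52 (1.96 to 5.96). The 16 neutrophil-like cells of sham and the 25 of day 7 had 1568 and 1326 CPM of Rac2 and 314 and 474 CPM of Cybb. The 67 cells like B cells, at most 29 in a library, held 34 Cybb and 145 Rac2 UMIs.

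The make-up of the gene set differed by class when each gene was compared with itself. Cybb made up 2.12% (1.87% to 2.40%) of the UMIs of the 5 genes in microglia-like cells, 15% (14.1% to 16%) in border macrophage-like, 6.37% (5.47% to 7.38%) in neutrophil-like and 0.0513% in T or NK-like cells. Rac2 made up 10.5%, 9.16%, 35.3% and 54.2% in the same order, all libraries pooled. By library, its share was higher in border macrophage-like than in microglia-like cells in sham (12.4% against 9.28%), at day 3 (13.5% against 10.6%) and at day 7 (8.79% against 6.29%), and lower at day 1 (6.55% against 12.1%). Within border macrophage-like cells the sum of the 5 genes was nearly level (2907, 3045, 3010 and 2958 CPM) while the Cybb share ran from 7.44% at day 1 to 27.5% at day 7. In microglia-like cells the sum was 1513, 2373, 1856 and 1838 CPM and the Cybb share ran from 0.773% in sham to 4.16% at day 7.
Single cells with several members were counted at 1000 UMIs. UMIs of 2 or more members were found in 73.3% of neutrophil-like, 45.5% of border macrophage-like, 38.0% of T or NK-like and 28.4% of microglia-like cells, against 0.0868% of endothelial-like and 0.0193% of oligodendrocyte-like cells. UMIs of 3 or more members were found in 38.7%, 15.5%, 3.70% and 3.55% of these immune classes in the same order, all libraries pooled. Within libraries the share with 3 or more was 21.1% at day 1 and 43.6% at day 3 in neutrophil-like cells. For border macrophage-like cells it was 13.5%, 7.44%, 21.1% and 25% in sham and at days 1, 3 and 7. At day 7 it was 2.83% in T or NK-like and 3.00% in microglia-like cells, so the pooled order of these classes did not hold there. The small class like B cells had 48.5% with 2 or more and 13.6% with 3 or more, among 66 cells. Only 2 cells, both neutrophil-like, held UMIs of all 5.

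**Figure D5:**
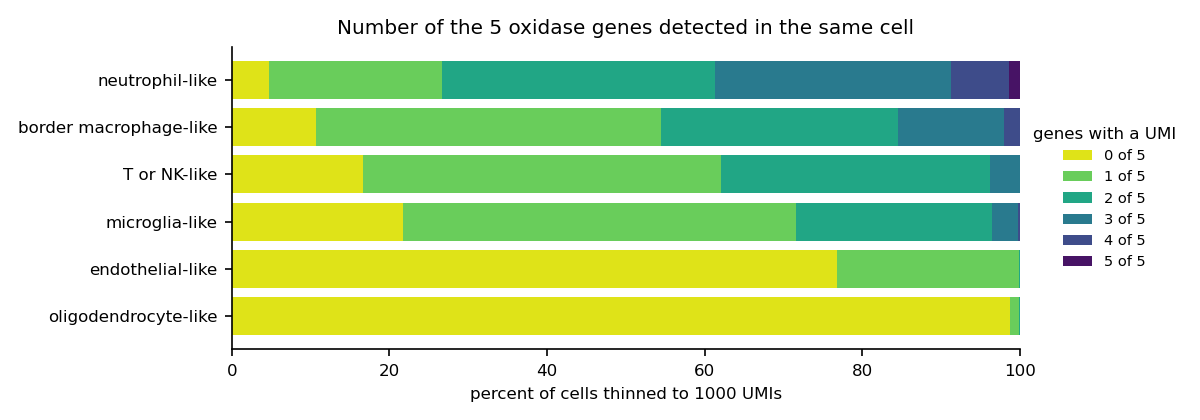
Share of cells, in percent, with UMIs of 0, 1, 2, 3, 4 or 5 of the genes after thinning each cell to 1000 UMIs, by class over all libraries. The share with 2 or more was 73.3% in neutrophil-like, 45.5% in border macrophage-like and 28.4% in microglia-like cells.

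Genes with a pattern like that of each member were sought over the 52 combinations of class and library with at least 50 cells, among 6667 genes that reached 100 CPM in one of them, with Pearson's r on log2 of CPM plus 10. The combinations of 1 library share its depth and free RNA, so the r values are a description. Most like Cybb were Clec12a (0.98), Pirb (0.95) and Lyz2 (0.95), which encode an inhibitory lectin, an inhibitory receptor and lysozyme of myeloid cells. Most like Ncf1 were Cd33 (0.98), Itgam (0.98) and Nlrp3 (0.97). Most like Ncf4 were Gmfg (0.97), Snx20 (0.96) and Rac2 itself (0.95), and most like Rac2 were Cd52, Gmfg and Ptprc (0.98 each), the last the pan-leukocyte antigen CD45. Cyba had its nearest genes at lower values, Rap1b (0.92), Clic1 (0.91) and Map3k8 (0.90). Among pairs of members r ran from 0.69 for Cyba and Cybb to 0.95 for Ncf4 and Rac2. The lists depend on the constant added, since with 1 CPM added Cybb and Ncf1 each kept 1 of their 3 genes and Rac2 kept 2, the genes most like Ncf4 became Arhgap9, Myo1g and Was, and the gene most like Ncf1 became Lrrc25.

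Related genes were read from lists of oxidase partners, kinases and exchange factors, activating receptors, transcription factors and antioxidant enzymes. Of the 5 partners at a mean of 50 CPM in microglia-like cells at day 1, Rac1, the widely expressed relative of Rac2, was higher than in sham and BC017643, the chaperone of gp91phox now named Cybc1, was lower. Of all genes 21.7% were higher and 25.0% lower. Rac1 stood at 197, 309, 259 and 275 CPM and BC017643 at 95.5, 23.9, 70.8 and 52.7 CPM in sham and at days 1, 3 and 7. Hvcn1, the proton channel that balances charge during the burst, stood at 58.5, 55.9, 97.5 and 83.3 CPM in microglia-like cells, and neutrophil-like cells of all libraries held 2 UMIs of it. Nox3, Nox4, Noxa1, Duox1 and Duox2, which belong to other NADPH oxidases, had no UMI in the microglia-like, border macrophage-like or neutrophil-like cells.
Of the 5 genes of the kinase and exchange factor list at that level in microglia-like cells at day 1, Arhgdib, which holds Rac2 in the cytosol, was higher (220 CPM in sham, 433 at day 1) and 3 were lower, among them Dock2 (117 and 60.2 CPM), an exchange factor for Rac. The median of this list was -0.79 on the log2 scale against -0.05 over all 2765 genes, of which 21.7% were higher and 25.0% lower. Of 8 activating receptors, C5ar1 (138 and 251 CPM) and Tlr2 (109 and 193 CPM) were higher at day 1 and Fcgr1 (482 and 279 CPM) was lower, beside 21.7% and 25.0% of all genes, and at day 3, where 10.7% of all genes were higher, 4 of 8 were higher and none lower. Of 5 transcription factors 2 were lower at day 1, where 25.0% of all genes were lower, among them Irf8 (530.4 and 283 CPM), which binds elements of the interferon-response type, and none higher. At day 3, 1 of 5 partners (Hvcn1) was higher and 1 of 5 transcription factors lower, beside 10.7% and 10.2% of all genes. At day 7, 1 of 7 on the kinase list was higher, and 1 of 5 partners (BC017643) and 1 of 8 receptors (Fcgr1) were lower, beside 9.10% and 7.58% of all genes.
In border macrophage-like cells at day 1 none of 3 partners differed by that much, 1 of 4 on the kinase list was lower, and 3 of 5 transcription factors were lower, among them Spi1 (663 CPM in sham, 371 at day 1), which encodes the myeloid factor PU.1. The median of the transcription factors was -0.74 on the log2 scale. At day 3, where 14.6% of all genes were higher and 13.9% lower, 6 of 9 activating receptors were higher and 1 lower. At day 7, where the shares were 20.1% and 18.3%, 3 were higher and 4 lower. Lists of so few genes, such as the 4 of the kinase list beside a background of 22.6% lower, are a description only.
Of the antioxidant enzymes, 9 of 11 were higher than in sham and none lower in microglia-like cells at day 1, where 21.7% of all genes were higher, and the median of the list was 1.08 on the log2 scale. At days 3 and 7, 2 of 10 and 1 of 10 were higher and none lower, beside 10.7% and 9.10% of all genes higher. In border macrophage-like cells at day 1, where 17.9% of all genes were higher, 11 of 13 were higher and none lower, with a median of 1.18 against -0.03 over all 2542 genes. At day 3, 5 of 11 were higher and 1 lower there (14.6% and 13.9% of all genes), and at day 7, 5 of 12 were higher and none lower (20.1% and 18.3%). Hmox1, which encodes the haem-degrading enzyme haem oxygenase 1, stood at 70.2, 548, 142 and 70.6 CPM in microglia-like and at 354, 3729, 202 and 267 CPM in border macrophage-like cells. Prdx1, a peroxiredoxin that removes hydrogen peroxide, stood at 248, 810, 394 and 279 CPM in microglia-like cells.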

How the data were processed

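Whole cells of the operated hemisphere were profiled by 10x 3′ single-cell RNA-seq, 1 library per group. The deposited matrices hold the authors' counts of UMIs per gene and cell, not normalized. Their processing notes name Cell Ranger 3.0.1 and Seurat 4.1.2, while the file headers name Cell Ranger 4.0.0. The notes name GRCh38, but 31011 of 31053 identifiers (99.9%) matched mouse GENCODE vM21. Every deposited cell had at least 500 UMIs.
Following the study's filter, cells were required to have 200 to 3000 genes and no more than 10% of UMIs from mitochondrial genes. Fewer cells of each library passed these limits than the study states. They were integrated over libraries and clustered with Seurat 5.3.0 in R 4.3.3 (2000 variable genes, 30 components, resolution 1) without the members and related lists. A cluster was named from marker lists with at least 3 detected markers. Doublets were called with Scrublet in scanpy 1.11.5 and kept. UMIs were summed per class and library, and exact intervals came from scipy 1.17.1. The step was tested on simulated data. Members and lists were chosen with earlier results of these data known. The text names all 5 members, companion genes by the fixed lists and the 3 genes most like each member. In all, 37 pairs of a result and an alternative were planned and 2 added after seeing the data. Clec7a, on the receptor list, was not analysed here, and some items of the lists are not reported here.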

Additional observations from a re-analysis of the deposited data

Results flagged for a closer look

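For 3 results the difference from sham had opposite directions in microglia-like and border macrophage-like cells, with both intervals apart from 1, which is what marked them for a closer look. The Cybb ratio to sham at day 1 was above 1 in microglia-like and below 1 in border macrophage-like cells, and the former divided by the latter was 6.44, on a base of 6 sham UMIs in microglia-like cells. With each cell classed by its own markers, the microglia-like ratio was 1.17 (0.693 to 2.08), an interval that includes 1. For Rac2 at day 1 this quotient was 3.70, and for Cyba at day 7 it was 1.40. With 1 library per group, none of these differences was tested.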

How the results depend on the processing

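No paired analysis was possible because each group has 1 library, and no library could be left out for the same reason. Of all values recomputed under 18 settings, those added included, 1782 moved by less than their counting interval or stayed within 1.5 times for counts, 305 moved further and 1 reversed. The reversed one is the day 1 Cybb ratio of neutrophil-like to microglia-like cells, 0.656 in clustering without integration. Of the moved values, 68 are shares of cells without thinning, 56 shares of cells thinned to 500 UMIs and 28 shares of genes past 2-fold in place of 1.5-fold. At 2-fold 10.4% of genes were higher and 11.4% lower in microglia-like cells at day 1, and Cyba was no longer counted. The cause was not tested here or for the changes that follow.
Without integration, the Cybb ratio to sham in microglia-like cells was 15.7, 18.8 and 21.6 at days 1, 3 and 7 on 1 sham UMI, the border macrophage-like to microglia-like Cybb ratio was 238 in sham and 14.9 at day 7, the day 1 Rac2 ratio of neutrophil-like to microglia-like cells was 3.78, and in border macrophage-like cells at day 7 0 members were higher and 1 (Rac2) lower. With the members and lists left in the clustering, the Cybb ratio to sham in microglia-like cells was 16.4 at day 1 and 18.9 at day 3, again on 1 sham UMI, and the border macrophage-like to microglia-like ratio was 256 in sham and 27.1 at day 7. With each cell classed by its own markers, Cybb was at 1.17 and 1.52 of sham in microglia-like cells at days 1 and 3, and 1 member (Cybb) was higher at day 7.
With an upper limit of 6000 genes, 1 member was higher in microglia-like cells at day 3 (Rac2) and 1 at day 7 (Cybb), 1 was higher (Ncf1) and 1 lower (Rac2) in border macrophage-like cells at day 7, and the Cybb ratio of border macrophage-like to microglia-like cells was 4.87 at day 1 and 5.74 at day 7. With the mean of single cells' CPM, 1 member (Cybb) was higher in border macrophage-like cells at day 7, the day 1 border macrophage-like to microglia-like Cybb ratio was 9.02 and the day 1 neutrophil-like to microglia-like Rac2 ratio was 4.01. Scaling by the median ratio gave 16.3 for Rac2 in neutrophil-like cells at day 3, with all 5 members higher. Of the alternatives chosen after seeing the data, the deeper microglia-like cluster alone gave 1 member (Cybb) higher at day 7, and leaving out cells with a UMI of a monocyte marker gave 2 members (Ncf1 and Rac2) lower in border macrophage-like than in microglia-like cells at day 1. That alternative and classing by single cells left under 50 border macrophage-like cells in a library compared with sham, so no value was had there. Cybb in microglia-like cells rests on 6 to 90 UMIs per library, which limits its precision.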
